A study of Rattus norvegicus with 3 samples.

Results

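Peptide receptors of the adrenal gland were examined in RNA labelled as rat adrenal medulla, on 3 oligonucleotide arrays. The genes were taken by name: Adcyap1r1, Vipr1, Mc2r, Npy1r, Ednra, Ednrb, Bdkrb2 and Tacr1. Every probe set annotated to 1 of these 8 genes alone was used, which gave 12 of the 31042 gene probe sets and covered 5 of the 8 genes. Mc2r, Ednra and Ednrb were not analysed here. The samples were 1 array from rats kept in the cold for 7 days, and 2 arrays (replicates a and b) from rats kept in the cold for 1 day. All the rats were thus exposed to cold, and no array of unexposed rats was analysed here. The labels used here give no strain, sex or age, and whether replicates a and b come from separate animals is not stated. A p-value from these arrays thus rests only on the spread between the 1-day arrays, pooled over probe sets, and that spread may be technical.

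The adrenal medulla is made of chromaffin cells, which release adrenaline and noradrenaline into the blood, and it lies inside the steroid-making cortex. Acetylcholine from the splanchnic nerve is the fast signal for release, and peptides carried by the same nerve, by local cells and by the blood tune it through G protein-coupled receptors. PACAP, the ligand of the Adcyap1r1 receptor, is a known transmitter of that nerve under prolonged stress. Receptors that couple to Gs raise cyclic AMP, those that couple to Gq raise cell calcium, and those that couple to Gi lower cyclic AMP.

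The deposited values are linear intensities, 1 per probe set and array, and are given here either as intensities or as log2(intensity + 16). Their brightness depends on the probes, so no probe set is ranked against another. A low end for each array was read from 27 control probe sets for bacterial genes, none of which a rat carries. Their highest intensity was 333 on the 7-day array, against 2318 on 1-day array a and 252 on 1-day array b. Of all gene probe sets 67.3% read above it at 7 days, 34.3% on array a and 66.4% on array b. Whether RNA for these controls was added to the samples is not given in the sources used here, so the highest value is a cautious limit and not a detection call. 1-day array a stood apart in RNA controls too. Its beta-actin 3′ to 5′ ratio, which grows as RNA is degraded, was 231, while the 7-day array had 8.87 and 1-day array b had 6.11. The gap was smaller for GAPDH, with a ratio of 5.02 on array a, 1.87 on the 7-day array and 1.79 on array b. The part of RNA quality in the values below was not tested.

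Adcyap1r1 and Bdkrb2 were the receptor genes with signal above the controls on every array, and no probe set of the 5 genes passed the test between 7 days and 1 day of cold. Of the 12 probe sets, 4 read above the bacterial controls on all 3 arrays, 2 of Adcyap1r1 and 2 of Bdkrb2, and these were also the 4 that passed the filter on low values (mean log2 of at least 9.60, an intensity of 759). The other 8, which included every probe set of Vipr1, Npy1r and Tacr1, did not pass. By array, 10 of the 12 read above the control limit at 7 days, 4 on 1-day array a and 6 on 1-day array b. Of all gene probe sets 67.3%, 34.3% and 66.4% did so in that order. The share of all that read above it on all 3 arrays is not given here.

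**Figure D1:**
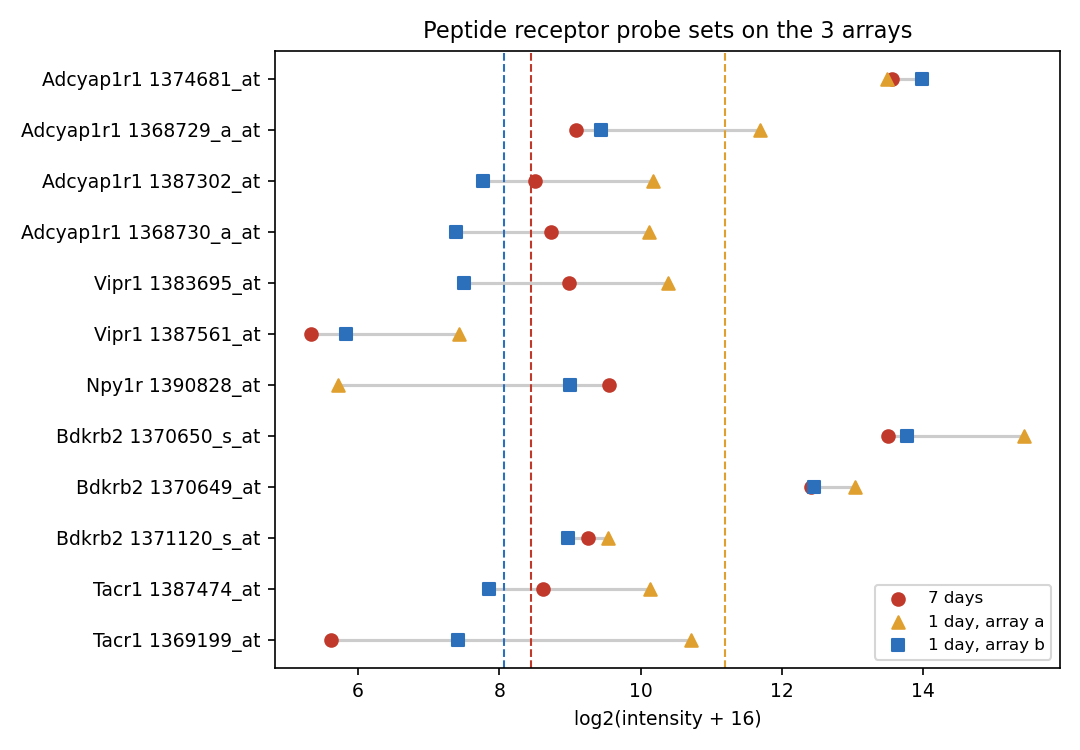
Level of each of the 12 receptor probe sets as log2(intensity + 16), with 1 point per array (7 days, 1-day array a, 1-day array b) and a grey line over their range. Dashed lines mark the highest of 27 bacterial control probe sets on the array of the same colour. 4 probe sets lie right of all their lines, and on array a the other 8 lie left of its line.

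Adcyap1r1 encodes PAC1, the PACAP receptor that couples to Gs and Gq. Its brightest probe set, 1374681_at, read 12030 on the 7-day array, against 11474 on 1-day array a and 16188 on 1-day array b. The 7-day value lay between the 1-day arrays, closer to array a, but below both, by -0.39 from each, with quantile normalisation. On the log2 scale it was 13.56 at 7 days and 13.74 ± 0.35 at 1 day (SD, n = 2), a difference of -0.18 ± 0.97 (SE) with an adjusted p of 1.00 in limma. Set against array b alone the difference was -0.43, and against array a it was 0.07.

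The other 3 Adcyap1r1 probe sets did not follow the first. Probe set 1368729_a_at, of a type designed to read several transcripts of a gene, gave 525 at 7 days, against 3277 and 678 on 1-day arrays a and b, so the 7-day value was the lowest (log2 difference -1.48 ± 1.73, SE, adjusted p of 1.00 in limma). The remaining pair, 1387302_at and 1368730_a_at, are annotated to the same cDNA. They read 345 and 410 at 7 days, 1144 and 1100 on 1-day array a, and 203 and 150 on 1-day array b. Both were inside the range of the bacterial controls on each 1-day array and just above it at 7 days. Relative to array b, the 2 kept probe sets were thus lower at 7 days (-0.43 and -0.36), and the 2 not kept were higher (0.72 and 1.36). PAC1 is made in several splice forms, but the probe positions were not used here, and these values cannot be assigned to forms.

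Vipr1 encodes VPAC1, a Gs-coupled receptor that binds VIP and PACAP alike. Probe set 1383695_at read 488 on the 7-day array, against 1324 on 1-day array a and 165 on 1-day array b. It passed the control limit at 7 days only. Its log2 difference of 7 days from 1 day was 0.04 ± 2.64 (SE, adjusted p of 1.00 in limma run without the filter), made up of 1.48 against array b and -1.41 against array a. The second probe set, 1387561_at, read 24.1 at 7 days, against 157 and 41.0 at 1 day on arrays a and b. These values lie inside the bacterial range on all 3 arrays, so no direction is drawn from them.

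Npy1r encodes the Y1 receptor of neuropeptide Y, which couples to Gi. NPY is itself made by chromaffin cells. Its 1 probe set, 1390828_at, read 734 on the 7-day array, against 36.9 on 1-day array a and 497 on 1-day array b. As deposited, it was the 1 of the 12 that read above both 1-day arrays, where 18.8% of all gene probe sets did so. It stayed above both with quantile normalisation and median centring, where 3 and 2 of the 12 did so, Bdkrb2 1371120_s_at among them each time. The share of all gene probe sets under these scalings is not given here. On array a it lay at percentile 0.0612 of that array's gene probe sets, while it lay at percentile 51.9 at 7 days and 46.9 on array b. The log2 difference of 7 days from 1 day was 2.19 ± 3.17 (SE, adjusted p of 1.00 in limma without the filter) and rested on array a: against array b alone it was 0.55.

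Bdkrb2 encodes the B2 receptor of bradykinin, a Gq-coupled receptor that is present without inflammation, unlike the induced B1 receptor. Its brightest probe set, 1370650_s_at, read 11588 at 7 days, against 44100 on 1-day array a and 13996 on 1-day array b. The 7-day value was the lowest, 13.50 against 14.60 ± 1.17 (SD, n = 2) on the log2 scale, and the difference of -1.10 ± 0.99 (SE, adjusted p of 1.00 in limma) was smaller than the 1.65 between the 1-day arrays. It rested on array a: against array b alone it was -0.27, and against array a -1.93. Probe sets of this type can share probes with other genes, so part of its signal may not be Bdkrb2.

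A gene-specific probe set of Bdkrb2, 1370649_at, gave a flatter picture. It read 5425 at 7 days, against 8334 and 5634 on 1-day arrays a and b, a log2 difference of -0.34 ± 0.93 (SE, adjusted p of 1.00 in limma) from the 1-day mean and of -0.05 from array b. The third, 1371120_s_at, read 596 at 7 days, against 728 and 484 at 1 day on arrays a and b, which lay above the bacterial limit on the 7-day array and array b but not on array a. Bdkrb1, the gene of the induced B1 receptor, read 20.6 at 7 days, against 80.3 and 13.1, inside the bacterial range on every array.

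Tacr1 encodes NK1, the Gq-coupled receptor of substance P. Probe set 1387474_at read 379 on the 7-day array, against 1106 on 1-day array a and 214 on 1-day array b, and passed the control limit at 7 days only. Its log2 difference was -0.37 ± 2.71 (SE, adjusted p of 1.00 in limma without the filter) from the 1-day mean and 0.78 from array b. The second probe set, 1369199_at, read 32.9 at 7 days, against 1660 and 154 at 1 day on arrays a and b. All 3 values lie inside the bacterial range of their arrays, so no direction is drawn from them. By its values it is the 1 receptor probe set counted as at least 2-fold below both 1-day arrays, where 5.74% of all gene probe sets were. None of the 12 was at least 2-fold above both, where 1.25% of all were.

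Across all probe sets tested, limma called 0 of 15521 (0%) between 7 days and 1 day at an adjusted p of 0.05, and 70 had an unadjusted p under 0.05. The 4 receptor probe sets tested had unadjusted p-values of 0.268 to 0.853 in limma. Without the filter, limma called 0 of 31042 (0%), and 62 had an unadjusted p under 0.05. The SE comes from limma's trend of the 1-day spread over intensity, with 1 residual degree of freedom per probe set. The prior degrees of freedom were infinite with and without the filter. Each SE is thus that of the pooled trend, and the probe set's own 1-day pair has no weight in it. The lone 7-day array is taken to have the same pooled spread. Of the 12 receptor probe sets, 5 read below both 1-day arrays, 6 lay between them and 1 lay above, while 27.6% of all gene probe sets read below both. With quantile normalisation 6 read below both, 3 between and 3 above, and with median centring 4, 6 and 2. The shares of all and of kept probe sets in this paragraph are as deposited only. Of the 4 kept ones, 3 read below both, as 25.3% of kept probe sets did, and 0 above both, as 22.4% did. The 3 became 4 with quantile normalisation, where 1374681_at joined them, and 2 with median centring, where 1370649_at left them. None of these 4 was at least 2-fold beyond both, where 0.0387% of kept probe sets were above and 0.341% below.

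As deposited, all 12 probe sets had a log2 difference between the 1-day arrays that was larger in size than that between 7 days and array b. This held for 8 of the 12 with quantile normalisation and 9 with median centring. The share of all gene probe sets for which it held is not given here. Over all of them too the 1-day arrays lay further apart. The SD of that difference was 1.99, against 0.97 for 7 days from array b. Of the 12 probe sets, 8 were at least 2-fold higher on array a than on array b, where 47.1% of all gene probe sets were, and 1 (Npy1r) was at least 2-fold lower, where 14.9% of all were. The 8 became 5 with quantile normalisation and 4 with median centring, and the 1 became 2 with each. Of the 4 kept ones, 2 were at least 2-fold higher on array a, where 24.0% of kept probe sets were, and 0 were lower, where 20.7% were. With median centring these were 0 and 1. All these shares are as deposited, and those under the other scalings are not given here. They would differ: the median difference of array a from array b over kept probe sets was -0.09 with quantile normalisation and -1.32 with median centring. The values that follow are as deposited. Among all probe sets below the filter the median difference of array a from array b was 2.13, and among those kept it was 0.07. The bacterial controls had a median of 3.16, with 24 of 27 at least 2-fold higher on array a. The dim receptor probe sets that left the bacterial range on any array had differences of 0.57 to 2.89, Npy1r apart.

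Against 1-day array b alone, a comparison of 2 arrays with no test, 6 of the 12 read higher at 7 days and 6 lower, where 43.0% of all gene probe sets read lower. The 4 kept probe sets all read lower, by log2 differences of -0.43 to -0.05, and 50.0% of kept probe sets did so. Both receptor genes, taken by their best kept probe set, were thus lower, as 51.4% of 9292 genes were. That of 1370649_at became 0.00 with quantile normalisation. Of the dim ones, 2 were at least 2-fold higher (Vipr1 1383695_at and Adcyap1r1 1368730_a_at) and 1, inside the bacterial range, at least 2-fold lower (Tacr1 1369199_at), while 14.9% and 6.64% of all gene probe sets were. The bacterial controls spread from -1.49 to 3.14 in the same comparison. Every dim receptor probe set that left the bacterial range on any array lay within that spread, and Tacr1 1369199_at (-1.80) lay below it. The controls were dim, with medians of 45.2 at 7 days and 26.6 on array b. Their spread is thus no measure for Npy1r and Bdkrb2 1371120_s_at, which read above all controls on both arrays. Among kept probe sets 286 (1.84%) were at least 2-fold higher at 7 days than on array b and 87 (0.561%) lower, a split that became 167 and 202 under median centring of the arrays.

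**Figure D2:**
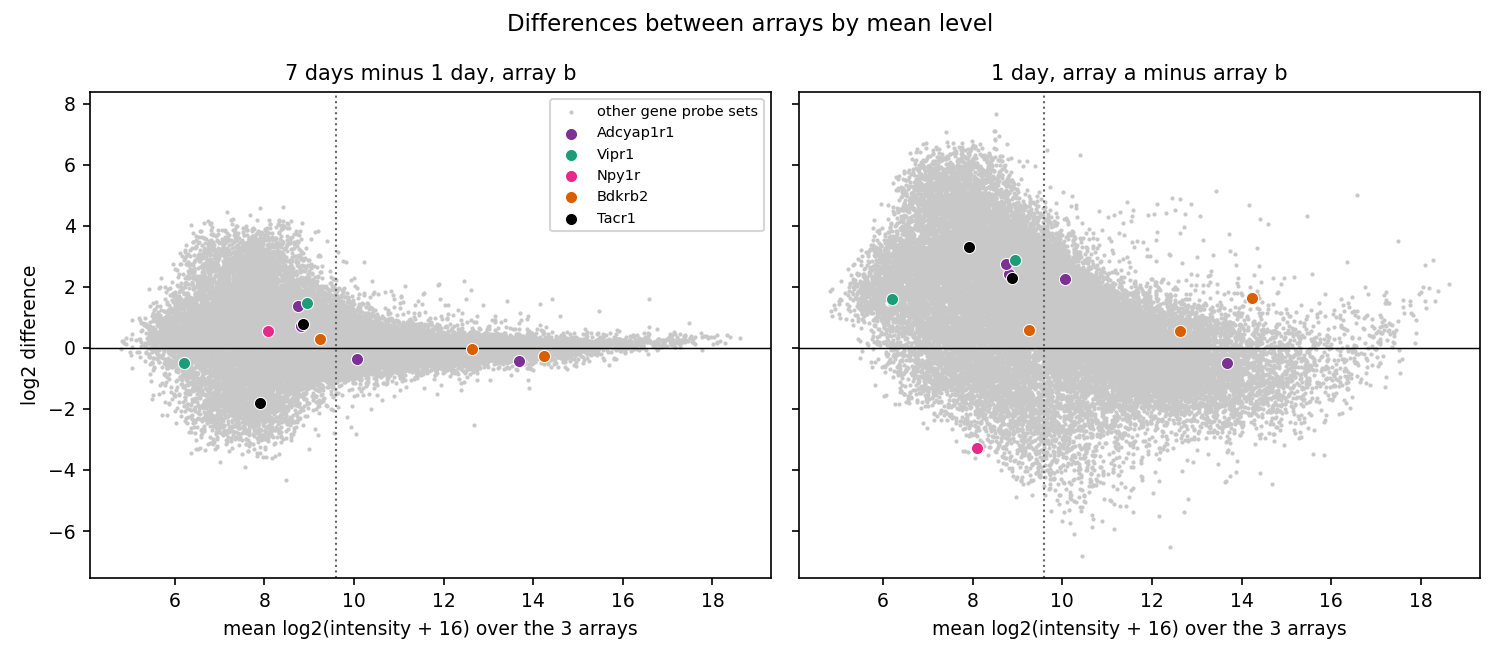
Log2 difference of 7 days from 1-day array b (left) and of 1-day array a from 1-day array b (right), against the mean log2(intensity + 16) over the 3 arrays. Grey points are all other gene probe sets, coloured points the 12 receptor probe sets, and the dotted line the filter at 9.60. The 4 receptor probe sets right of the line lie within 0.43 of 0 on the left, and 8 of the 12 lie at least 1 above 0 on the right.

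The peptides that act on these receptors were read with their processing enzymes. Of 21 genes listed, 16 had a probe set and 7 were kept, of which 0 read above both 1-day arrays, 5 lay between them and 2 read below both. Over all 9292 genes with a kept probe set 24.8% read above both and 24.9% below both. The median log2 difference from array b was -0.24, with 7 of 7 lower, and that of all genes was -0.01. It was 0.57 from array a, where the median of all genes was 0.04, and limma called 0 of the 7.

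Npy, the precursor of the Y1 ligand, read 143523 at 7 days, against 66780 on 1-day array a and 147468 on 1-day array b. Vip, whose product binds VPAC1, read 5084, against 3415 and 6016. Both precursors thus lay between the 1-day arrays, near array b. Tac1, the precursor of substance P, read 609 at 7 days, against 984 on array a and 894 on array b, below both. It lay between them with quantile normalisation and with median centring, and on array a it lay inside the bacterial range.

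PACAP's own gene, Adcyap1, had no probe set that passed the filter. Probe set 1394908_at read 325 at 7 days, against 1991 and 240 at 1 day on arrays a and b, inside the bacterial range each time. Probe set 1368892_at read 113, against 2346 and 267, inside that range at 7 days and just above it on both 1-day arrays. Pomc, the precursor of corticotropin, which the pituitary makes, read 50.4, against 1069 and 133. Edn1, the precursor of endothelin, read 259, against 1861 and 200. Neither Pomc nor Edn1 left the bacterial range on any array. The endothelin-converting enzyme gene Ece1 read 15428 at 7 days, against 11022 and 15890. Its relative Ece2 read 1083, against 3176 and 1326. Ece1 lay between the 1-day arrays and Ece2 below both. A second kept Ece2 probe set, 1386749_at, read 525, against 1247 and 1101, also below both. Its log2 difference from array b was -1.05, against -0.29 for the first, and on array a it lay inside the bacterial range.

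**Figure D3:**
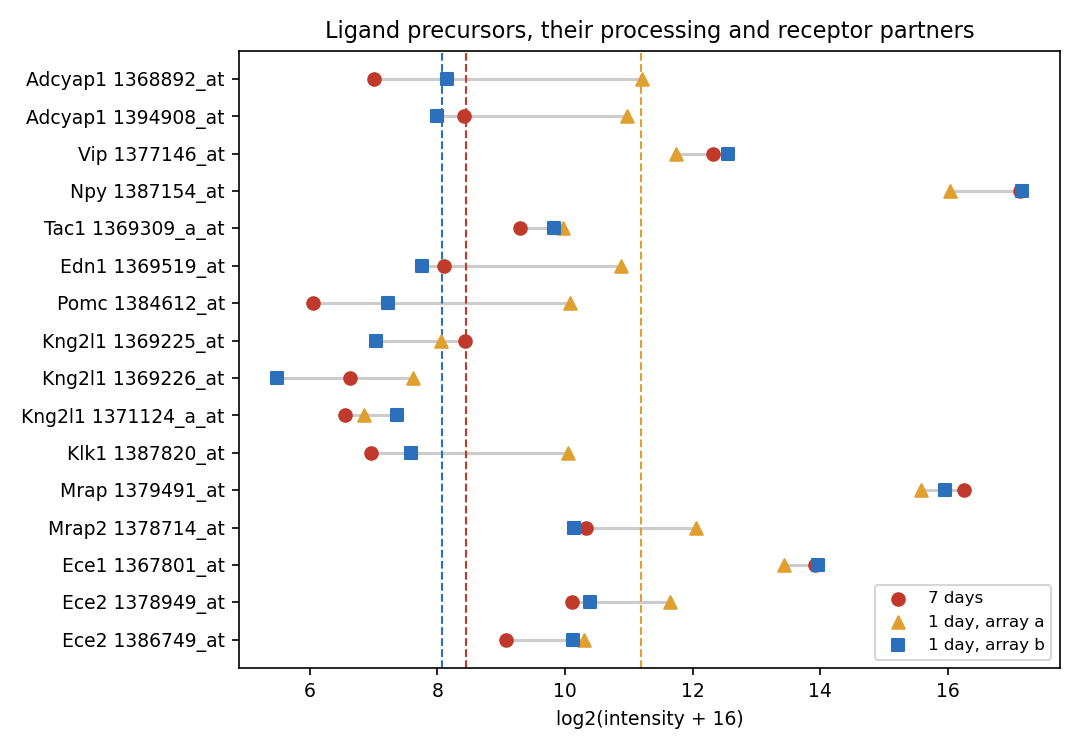
Level of ligand precursors, of enzymes that process them and of receptor partners as log2(intensity + 16), with 1 point per array, grey lines over the range and dashed lines at the highest bacterial control of the array of the same colour. Npy, Vip, Mrap and Ece1 lie right of all their lines, and Adcyap1 1394908_at, Edn1 and Pomc lie left of them.

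Related receptors and accessory proteins numbered 19, of which 16 had a probe set and 7 were kept, with 2 above both 1-day arrays, 4 between and 1 below both. Their median log2 difference from array b was 0.19 (0.01 with median centring), beside -0.01 for all genes, and limma called 0. Mrap, the accessory protein without which the corticotropin receptor does not reach the cell surface, read 77980 at 7 days, against 49197 on 1-day array a and 63698 on 1-day array b, the highest of its 3 values. It stayed above both with quantile normalisation and median centring, and it is also on the list of cortex markers below. Tacr2, of the neurokinin A receptor, read 1773, against 1499 and 1403, also above both, though on array a it lay inside the bacterial range.

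Ramp1, a partner of the calcitonin receptor family, read 981 at 7 days, against 1621 and 1115, below both, though it lay between them with quantile normalisation and with median centring. Ramp3, of the same family, lay between the 1-day arrays at 3305, against 94.8 on array a and 3688 on array b. This array gap was like that of Npy1r. Ramp1 and Ramp3 lay inside the bacterial range on array a. Of the peptidases that cut the peptides at the cell surface, 5 of 9 genes were kept, with 1 above both 1-day arrays and 4 between. The 1 was Anpep, of aminopeptidase N, which read 2433, against 874 and 1884, though on array a it lay inside the bacterial range. Mme, of neprilysin, which cuts substance P and bradykinin, read 5300, against 3042 and 7267. Ace, which cuts bradykinin, read 2944, against 2709 and 3529. Limma called 0 of the 5.

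Downstream of Gs, 15 of 19 genes were kept, with 6 above both 1-day arrays, 5 between and 4 below both, and a median of 0.07 against array b (-0.11 with median centring). Adcy5, an adenylyl cyclase, read 545 at 7 days, against 2098 and 1386 at 1 day on arrays a and b, with a log2 difference of -1.32 from array b. Adcy2, another cyclase, read 1516, against 4189 and 2049. Both lay below the 1-day arrays under each scaling tried, though on array a Adcy5 lay inside the bacterial range. Prkacb, a catalytic subunit of protein kinase A, lay above them at 41240, against 9794 and 31677. Limma called 0 of the 15.

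Downstream of Gq, 11 of 14 genes were kept, with 1 above both 1-day arrays, 8 between and 2 below both, and a median of 0.05 against array b (-0.13 with median centring). Prkca, of protein kinase C alpha, read 930 at 7 days, against 3620 and 1269. Prkcb, of protein kinase C beta, read 1065, against 1781 and 1658, though on array a it lay inside the bacterial range. Plcb1, a phospholipase C that Gq activates, read 4511, against 3502 and 4216. Prkca and Prkcb were the genes below both, and Plcb1 the gene above both, though Plcb1 lay between the 1-day arrays with median centring, and Prkcb with that and with quantile normalisation. Limma called 0 of the 11.

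Gi and G beta-gamma genes had 7 of 9 kept, with 5 below both 1-day arrays, 2 between and 0 above, and a median of -0.35 against array b. Of all genes 24.9% read below both, and their median was -0.01. With quantile normalisation 1 of the 7 was below both, and with median centring 0 were. The share of all genes under these scalings is not given here. Gnai2, a Gi alpha subunit, read 11023 at 7 days, against 25263 and 14681. Gng2, a gamma subunit, read 1024, against 1245 and 2305. Gng3, another gamma subunit, read 2696, against 2914 and 3490. For all 3 genes the value at 7 days was the lowest as deposited, though on array a Gng2 lay inside the bacterial range. Limma called 0 of the 7.

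Genes of receptor desensitisation had 9 of 12 kept, with 3 above both 1-day arrays, 5 between and 1 below both, and a median of 0.09 against array b (-0.09 with median centring). Rgs2, which shortens Gq signals, read 70506 at 7 days, against 31605 and 51093. Grk2, a kinase that marks active receptors for arrestin, read 1110, against 990 and 964. Both lay above the 1-day arrays under each scaling tried. Rgs3, a relative of Rgs2, lay below them at 1395, against 2148 and 2009, but between them with quantile normalisation and with median centring. Grk2 and Rgs3 lay inside the bacterial range on array a. Limma called 0 of the 9.

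**Figure D4:**
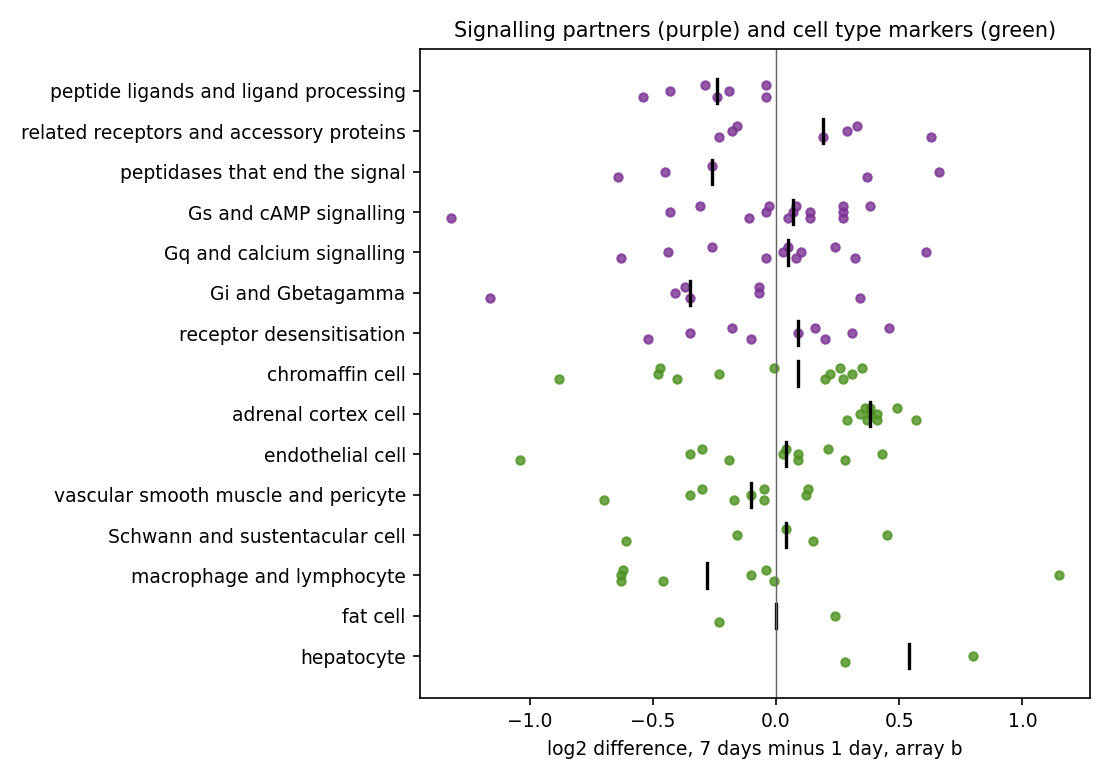
Log2 difference of 7 days from 1-day array b for the kept genes of 7 lists of signalling partners (purple) and 8 lists of cell type markers (green). Each point is 1 gene and each black bar the list's median, which is 0.38 for adrenal cortex cells and -0.35 for Gi and G beta-gamma genes.

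The labelled tissue was checked against its markers, and those of both medulla and cortex read high. All 12 measured chromaffin cell markers of 13 listed passed the filter. Th, of catecholamine synthesis, read 224786 at 7 days, against 79575 and 193597, and Star, of cortical steroid synthesis, read 277066, against 602316 and 208111, both far above the bacterial range on every array. The receptors therefore cannot be assigned to either tissue, and in such bulk RNA fewer cells of a type and less RNA per cell cannot be told apart.

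Limma called 0 genes in each of the marker lists. Of 15 cortex markers 11 had a probe set and 10 were kept. All 10 read higher at 7 days than on array b (median 0.38), as they did with quantile normalisation (0.24) and median centring (0.20). Of all 9292 genes 4517 read higher than array b, with a median of -0.01. The summed intensity of the cortex markers was 1651018 at 7 days, against 2175083 on 1-day array a and 1253461 on 1-day array b. A few bright genes such as Star set that sum, and the median log2 difference of array a from array b was -0.03, with Cyp11b1 at -4.05. Cyp11b1 read 2012 on array a, inside the bacterial range of that array. Nr0b1, a cortex marker, did not leave the bacterial range on any array. Chromaffin markers had 6 of 12 higher than array b (median 0.09, and -0.20 with quantile normalisation), and their summed intensity was 1292918, against 2477698 and 1133530. Here too the sum on array a was set by a few bright genes, Chgb, Chga and Dbh, while the median difference of array a from array b was -0.57, with Th at -1.28. No marker was at 0. The part of cortex and medulla content in the receptor values was not tested.

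Endothelial markers read higher than array b in 7 of 11 (median 0.04), and their summed intensity was 67423 at 7 days, against 56465 and 69564. Smooth muscle and pericyte markers did so in 2 of 9 (median -0.10), with sums of 42089, against 26220 and 51512. Macrophage and lymphocyte markers did so in 1 of 8 (median -0.28), with sums of 65122, against 21700 and 73342. These endothelial, smooth muscle and blood cell sums were lowest on array a, as were those of Schwann and fat cell markers. The hepatocyte, cortex and chromaffin sums were highest on it. Schwann and sustentacular cell markers had 3 of 5 higher (median 0.04), and their median and the endothelial one became -0.14 with median centring. Fat cell markers had 1 of 2 higher (0.00) and hepatocyte markers 2 of 2 (0.54). Of the fat cell markers, Ucp1 and Lep stayed inside the bacterial range on all 3 arrays, while Cidea read above it on each, at 18241 at 7 days, against 6291 and 15428. Of the hepatocyte markers, Alb and 4 others stayed inside it, while Ttr read above it on each array, at 984 at 7 days, against 2536 and 810.

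The genes whose pattern over the 3 arrays lay nearest to the kept receptors were found by distance between log2 values after the mean over arrays was taken away. For Adcyap1r1 they were Sncg, Ticam1 and Amigo2, at distances of 0.007, 0.015 and 0.015. Sncg read 2739 at 7 days, against 2628 and 3690, the same order as Adcyap1r1. For Bdkrb2 they were Myt1, Disp3 and Mki67, at 0.001, 0.016 and 0.020. Over 3 arrays such nearness is common: of 9291 genes compared, 79 lay within 0.1 of Adcyap1r1 and 33 within 0.1 of Bdkrb2. Each receptor stood here for its brightest probe set alone, 1374681_at and 1370650_s_at, and its other probe sets had other patterns.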

How the data were processed

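RNA of 1 array after 7 days of cold and 2 arrays after 1 day was compared. The authors deposited 1 linear intensity per probe set (31099 per array). How they summarised and scaled it is not stated in the labels. The 2% trimmed mean was 2501 on each array, so scaling to a common mean is read from the values, which were kept. Such scaling lifts dim values on an array with weak signal. After 57 controls were set aside, probe sets with a mean log2(intensity + 16) at or above the median (15521) were tested with limma 3.58.1 in R 4.3.3 (lmFit and eBayes with trend, two-sided, Benjamini-Hochberg adjusted). Names came from the platform table, updated for 20758 probe sets through Entrez identifiers and the GRCr8 RefSeq table. A gene stands for its kept probe set with the highest mean.

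The receptors and all lists were chosen with earlier results of these data known. By rule the text names the receptors, the 3 genes nearest in pattern to each kept receptor, and up to 3 genes per list that lay outside both 1-day arrays and differed most from array b. Further genes, and the bacterial control range, were picked after values were seen. The fits were tested on simulated arrays that gave every probe set the same spread. In these data the spread differed with intensity, so that test cannot show how well the fits do here. The number of arrays limits the precision. Alternatives were pseudocounts of 1 and 64, quantile normalisation, median centring, no filter, a 75th percentile filter, limma with no trend or robust, averaged probe sets, and leaving out each 1-day array. Figures were drawn with matplotlib 3.10.9 in Python 3.11.15.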

Additional observations from a re-analysis of the deposited data

How the results depend on the processing

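Limma called 0 probe sets under each of its 8 alternatives (1 to 70 at an unadjusted p under 0.05). Counts at least 2-fold above both 1-day arrays (6 as reported) were 3 with quantile normalisation, 10 with median centring, 389 without a filter and 2 with the 75th percentile filter. Counts below both (53) were 1782 without a filter and 5 with the stricter one. Counts apart between 7 days and 1-day array b (373) were 181 with quantile normalisation, 6672 without a filter and 47 with the stricter one, and between 1-day arrays a and b (6950) 19258 and 2721. Leaving out a 1-day array gave 286 to 3065 above and 87 to 3578 below, the lower numbers without array a. The filter changes the number of probe sets counted; the other causes were not tested.

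Of 48 values for the 5 receptors under alternatives that kept all arrays, 40 stayed within the spread of the 1-day pair, 1 moved further and 7 changed sign. The SD of that pair was 2.04 for Vipr1, 2.32 for Npy1r and 1.61 for Tacr1, so large shifts still counted as within the spread. Tacr1 (-0.37) became -1.91 with the mean of its probe sets and was counted so. The 40 are thus no measure of stability. Leaving out a 1-day array cannot take a value beyond that spread: it gave -1.93 to -0.27 for Bdkrb2 (-1.10) and 0.55 to 3.83 for Npy1r (2.19), the value nearer 0 without array a in each. Relative to the 1-day mean, Adcyap1r1 (-0.18) became 0.33 with median centring and 0.07 without array b, and moved to -0.54 with the mean of its probe sets. Vipr1 (0.04) became -0.03 with a pseudocount of 64, -0.64 with the mean of its probe sets and -1.41 to 1.48 when a 1-day array was left out, the lower value without array b. Tacr1 (-0.37) became 0.13 with quantile normalisation, 0.15 with median centring and -1.51 to 0.78 when a 1-day array was left out, the higher value without array a. Relative to array b, the mean of the probe sets turned Adcyap1r1 (-0.43) to 0.32 and Tacr1 (0.78) to -0.51. Under median centring the median over kept probe sets was 0.48 relative to the 1-day mean (-0.03 as deposited) and -0.18 relative to array b (0.00 as deposited). No paired analysis was possible because the groups share only replicate letter a. Probe sets inside the bacterial range have no firm level.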
